A study of Homo sapiens with 12 samples.

Results

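Genes of lipid droplet and triglyceride metabolism were followed in cultured bile duct cancer cells treated with anlotinib, a small molecule that inhibits several receptor tyrosine kinases. The genes were chosen by name for their known roles, with earlier results of these data known: ACSL1, ACSL3, GPAM, LPIN1, DGAT1, DGAT2, PLIN2, PLIN3, PNPLA2 and HILPDA, 10 of the 58216 genes in the deposited table. RNA was sequenced from 2 intrahepatic cholangiocarcinoma lines, HCCC9810 and RBE, each cultured for 24 hours with 5 µM anlotinib or without it. Every culture was kept in serum-supplemented medium with penicillin and streptomycin. The drug was dissolved in DMSO, which reached a final concentration of 0.1%, and whether the control cultures received DMSO is not given in the sources used here. Each of the 4 groups (HCCC9810 control, HCCC9810 anlotinib, RBE control, RBE anlotinib) holds 3 libraries, described by the submitters as biological replicates. Each line is 1 cell line, so the data say nothing about how much such tumours vary.

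Libraries are named by the words and numbers of the count table's column headers: RBE control 1 to 3, RBE anlotinib 4 to 6, HCCC9810 control 7 to 9 and HCCC9810 anlotinib 10 to 12. In the sample titles all 12 of these numbers belong to the other treatment of the same line. The words of the headers were followed, and if the numbers were right instead, every anlotinib effect given here would change sign. The comparison of the untreated lines would then be one of treated cells. Library totals ran from 15215193 to 40963529 counts, and all 10 genes had enough counts to be tested. RBE anlotinib library 6 and HCCC9810 control library 7 had scaling factors apart from those of their groups (1.01 against 1.11 and 1.12, and 0.918 against 0.995 and 0.993), and calls that change without them are given both ways. The biliary markers KRT7, KRT19, EPCAM and SOX9 each averaged at least 1 CPM (reads counted per gene, scaled to a common library size) in all 4 groups. Their summed level was 6597 to 9927 CPM in control and 3975 to 4369 CPM in treated HCCC9810 cells, where KRT7 (-1.03 ± 0.19 on the log2 scale, adjusted p 0.00138) and KRT19 (-0.89 ± 0.14, adjusted p 0.000594) fell, and 1826 to 2328 and 2139 to 2679 CPM in RBE, where KRT19 rose (0.54 ± 0.14, adjusted p 0.0161). Markers of other cell types also moved with anlotinib in HCCC9810. The 4 leukocyte markers summed to 23.4 to 33.8 CPM in control and 34.0 to 64.6 CPM in treated libraries, with LYZ higher (0.93 ± 0.21, adjusted p 0.00590). The 4 fibroblast markers went from 21.2 to 23.7 CPM down to 9.31 to 16.1 CPM, with COL1A1 lower (-0.89 ± 0.14, adjusted p 0.000374). The 5 adipocyte markers summed to 14.5 to 15.4 CPM in control and 16.9 to 20.8 CPM in treated libraries. FABP4 was higher (0.66 ± 0.18, adjusted p 0.0176), PLIN1 was not called (-0.51 ± 0.25, adjusted p 0.154), and ADIPOQ and CIDEC were at 0 in treated libraries. The 5 hepatocyte markers summed to 89.0 to 94.1 and 121 to 140 CPM. Most of this was SERPINA1, which rose (0.55 ± 0.12, adjusted p 0.00405 in edgeR's test) from a mean of 87.6 to 129 CPM. ALB (-1.58 ± 0.98, adjusted p 0.134) and APOA1 (-1.93 ± 0.74, adjusted p 0.0654) were not called, with all treated libraries below the controls. In RBE the summed leukocyte, fibroblast and adipocyte levels of control and treated libraries overlapped, but single markers within these sums moved. The fibroblast marker PDGFRB was higher (0.80 ± 0.21, adjusted p 0.0158). The estimates of COL1A1 (-0.10 ± 0.13), COL1A2 (-0.68 ± 0.79) and DCN (-0.57 ± 1.41) were below 0 and not called (adjusted p 0.614 to 0.819). All treated libraries lay below the controls for COL1A2. FABP4 was not called (adjusted p 0.0771), with all treated libraries above the controls. The hepatocyte sum in RBE was 126 to 169 CPM in control and 90.5 to 114 CPM in treated libraries. Most of it was again SERPINA1, which fell there (-0.49 ± 0.12, adjusted p 0.00958 in edgeR's test) from a mean of 133 to 94.9 CPM. ALB, APOA1 and TTR were not called in RBE. The part of these markers in the results was not tested.

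Cells store surplus fatty acids as triglyceride in lipid droplets. A fatty acid is first activated to its CoA ester, then joined to a glycerol backbone in steps that end with triglyceride, and the droplet is covered by perilipin proteins that limit access of lipases. Liver-derived cells fill droplets when fatty acid supply or synthesis exceeds use, and empty them by lipolysis and through lysosomes.

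Anlotinib was followed by higher ACSL1, LPIN1 and PLIN2 in both lines and by higher PLIN3 in HCCC9810. LPIN1 rose 2.93-fold in HCCC9810 and 2.78-fold in RBE, ACSL1 1.95-fold in HCCC9810 and 3.07-fold in RBE, and PLIN2 2.57-fold and 1.91-fold. In HCCC9810, 4 of the 10 genes rose and none fell, beside 23.9% of the 18035 tested genes called in that line, 11.1% called higher and 12.8% called lower. In RBE, 3 of the 10 rose and none fell, beside 17.7% of tested genes called, 9.37% higher and 8.32% lower. A gene was called when its Benjamini-Hochberg adjusted p in edgeR's quasi-likelihood test was below 0.05. The median log2 fold change was 0.34 over the 10 genes and -0.05 over all tested genes in HCCC9810, and -0.01 over the 10 genes and 0.02 over all genes in RBE. In such bulk libraries a change in the amount of RNA per cell and a change in the share of cells that hold it cannot be told apart.

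**Figure D1:**
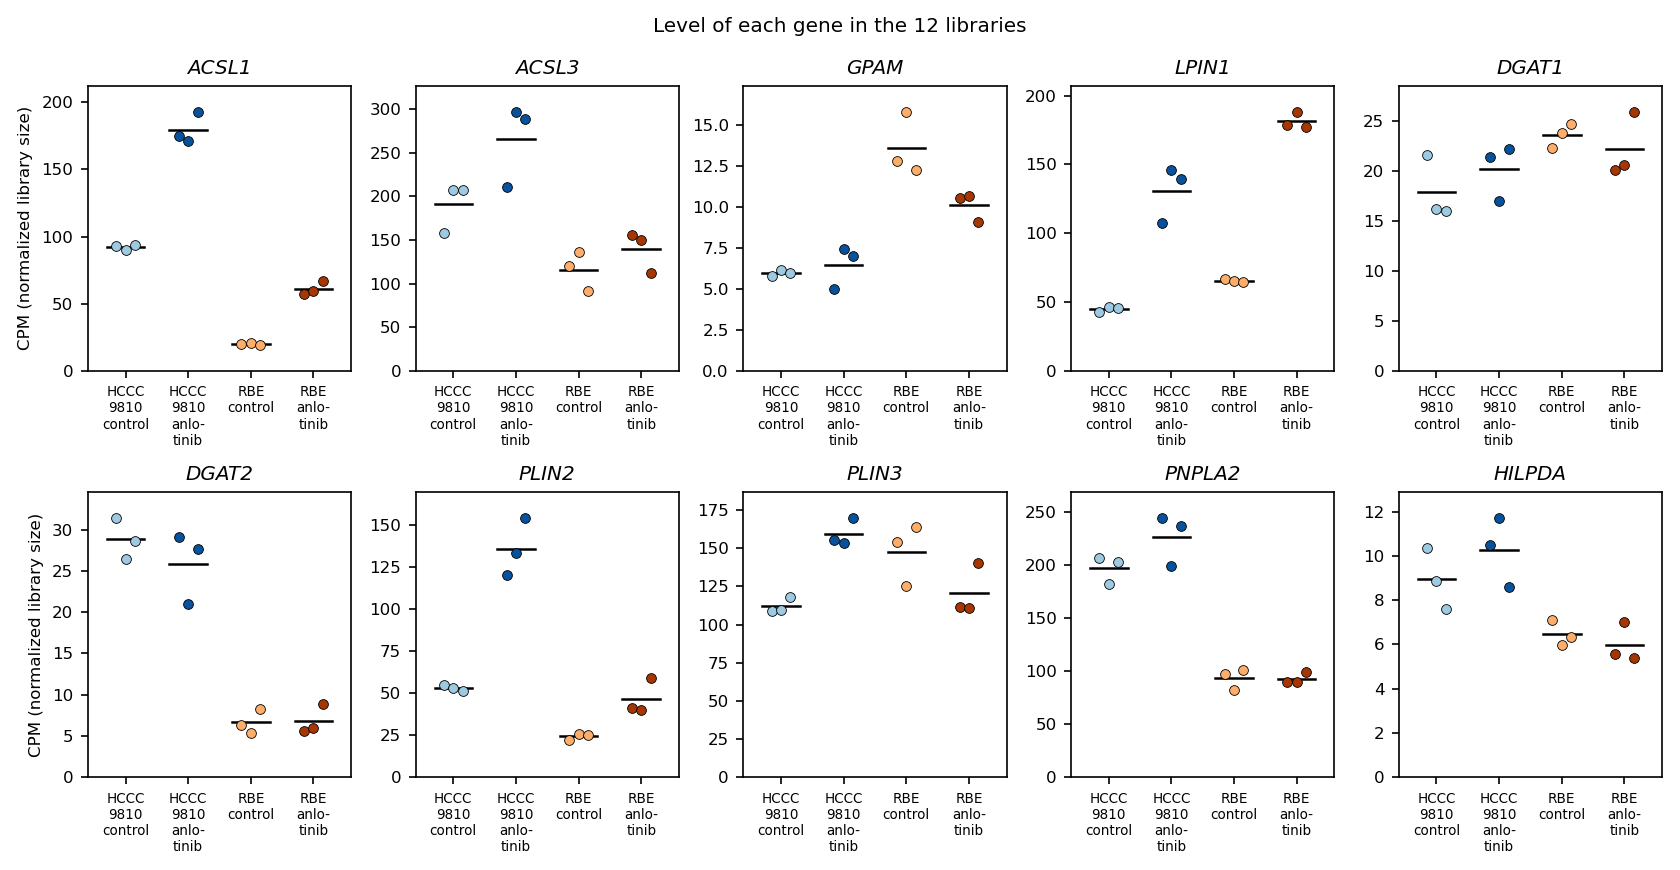
Level of each of the 10 genes in CPM (y axis, linear, from 0) in the 12 libraries, by group (x axis); each point is a library and each bar the mean of 3. The treated points of ACSL1, LPIN1 and PLIN2 lie above the control points of the same line in both lines, and those of PLIN3 do so in HCCC9810.

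The levels by library show that the control and treated ranges of ACSL1, LPIN1 and PLIN2 did not overlap in either line. Ranges lay apart, with the treated libraries higher, for 5 of the 10 genes in HCCC9810 (these 3, PLIN3 and ACSL3), beside 38.3% of all tested genes with separate ranges, 18.1% higher and 20.2% lower. In RBE the ranges lay apart for 4 of the 10, with 3 higher (ACSL1, LPIN1 and PLIN2) and 1 lower (GPAM), beside 35.0% of all tested genes, 19.2% higher and 15.8% lower.

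The promoter windows printed are those of the 10 genes that held a match to the sterol regulatory core or the E-box; the windows of LPIN1 and PLIN3, which also rose, held neither. The search covered 7 of the 10 genes, in 13 windows from RefSeq's GRCh38.p14 table, 5 of them for ACSL1 and 3 for LPIN1. A window is the 250 bases before an annotated start. DGAT1, DGAT2 and HILPDA were not covered. Each window was searched on both strands for 4 motifs: TCACNCCAC (a core of the sterol regulatory element), CACGTG (the palindromic E-box), CCAAT (the CCAAT box) and the direct repeat bound by PPAR. Capitals mark the match to TCACNCCAC in ACSL1 and PNPLA2, where it reads as its reverse complement, and to CACGTG in PLIN2.
ACSL1, chr4:184805554-184805803, minus strand: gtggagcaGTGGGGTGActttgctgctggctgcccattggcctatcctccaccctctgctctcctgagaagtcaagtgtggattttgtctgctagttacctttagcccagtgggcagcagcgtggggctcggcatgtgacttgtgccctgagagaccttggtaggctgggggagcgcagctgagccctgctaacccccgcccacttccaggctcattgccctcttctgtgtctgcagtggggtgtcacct
PLIN2, chr9:19127493-19127742, minus strand: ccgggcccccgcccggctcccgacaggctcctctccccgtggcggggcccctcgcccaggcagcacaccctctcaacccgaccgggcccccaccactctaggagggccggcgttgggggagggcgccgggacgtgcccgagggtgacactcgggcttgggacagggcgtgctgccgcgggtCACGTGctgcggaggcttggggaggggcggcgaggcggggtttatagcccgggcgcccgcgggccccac
PNPLA2, chr11:818664-818913, plus strand: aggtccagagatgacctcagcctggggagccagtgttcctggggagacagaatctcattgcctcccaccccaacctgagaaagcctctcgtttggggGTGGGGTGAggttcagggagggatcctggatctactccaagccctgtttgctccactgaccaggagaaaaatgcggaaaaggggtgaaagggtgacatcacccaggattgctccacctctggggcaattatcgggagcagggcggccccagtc

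The ACSL1 match lay 242 to 234 bases before the start at 184805553, which is 1 of the 5 starts annotated for that gene. The PNPLA2 match lay 153 to 145 bases before its start, and the PLIN2 match 69 to 64 bases before its start. TCACNCCAC was found in 2 of the 13 windows and in 0.883% of the 35116 windows of all genes, CACGTG in 1 of 13 and 6.34%, CCAAT in 3 of 13 (ACSL1, ACSL3 and PLIN3) and 32.0%, and the PPAR repeat in 0 of 13 and 0.0171%. None of the 3 LPIN1 windows held any of these 4 motifs in this stretch. ACSL1, which rose in both lines, and PNPLA2, which was called in neither, both carry the sterol regulatory core in a printed window. No motif overlapped another, and these matches describe the letters and not binding.

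The acyl-CoA synthetases activate long-chain fatty acids. ACSL1 (chr4:184755595-184826818, minus strand, GRCh38) is the main isoform of liver and fat. In HCCC9810 it stood at 93.1, 90.1 and 93.6 CPM in control libraries 7 to 9 and at 175, 171 and 193 CPM in anlotinib libraries 10 to 12. In RBE it stood at 19.9, 20.8 and 19.2 CPM in control libraries 1 to 3 and at 57.3, 59.4 and 66.8 CPM in anlotinib libraries 4 to 6. Treated libraries were higher in both lines, and treated RBE cells still lay below untreated HCCC9810 cells. ACSL1 rose by 0.96 ± 0.10 (log2 fold change ± SE, 3 libraries a group) in HCCC9810, with adjusted p 1.14e-05 in edgeR's test. In RBE it rose by 1.62 ± 0.10, with adjusted p 9.24e-08. The rise was larger in RBE than in HCCC9810, by 0.65 ± 0.14 on the log2 scale (adjusted p 0.00599, edgeR interaction contrast). Of the 10 genes, 2 had a called difference of effect between the lines, ACSL1 and PLIN3, beside 16.6% of all tested genes, 8.92% with the effect higher in RBE and 7.66% lower.

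ACSL3 (chr2:222860934-222944639, plus strand) encodes the synthetase that sits on nascent droplets. It averaged 191 ± 28.4 CPM (SD, n = 3) in HCCC9810 control and 266 ± 47.5 CPM in HCCC9810 anlotinib libraries, and the lowest treated value, 211 CPM, lay just above the highest control value, 207 CPM. Its log2 fold change was 0.48 ± 0.18 with adjusted p 0.0653, so the separation of the ranges was not called. In RBE the levels were 116 ± 22.4 and 140 ± 23.8 CPM, with overlapping ranges, and the log2 fold change was 0.27 ± 0.18 (adjusted p 0.335). ACSL3 has a GC content of 38.1% against a median of 48.6% over all tested genes, and the log2 fold changes of all genes in HCCC9810 ran with GC content (a Spearman correlation of 0.296 over genes, which do not count as replicates). With a correction for GC content and length ACSL3 was called higher in HCCC9810, at 0.80 with adjusted p 3.58e-06, and in RBE at 0.26 with adjusted p 0.0268. It was called in HCCC9810 under 8 of 22 alternative settings (other normalisations, filters and tools, and libraries left out), among them those without RBE control libraries 2 or 3, RBE anlotinib library 6 or HCCC9810 anlotinib library 10 (adjusted p 0.0201 to 0.0471).

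Glycerolipid synthesis is represented by 4 genes, of which LPIN1 alone was called in either line. LPIN1 (chr2:11677595-11827409, plus strand) encodes lipin 1, a phosphatidate phosphatase that makes the diacylglycerol from which triglyceride is formed. In HCCC9810 it stood at 42.3, 46.5 and 45.3 CPM in control libraries and at 107, 146 and 139 CPM with anlotinib. In RBE it stood at 66.3, 65.0 and 64.3 CPM in control libraries and at 178, 188 and 177 CPM with anlotinib. Every treated library was above every control library of either line. LPIN1 rose by 1.55 ± 0.11 (log2 fold change ± SE) in HCCC9810 with adjusted p 6.90e-07, and by 1.48 ± 0.11 in RBE with adjusted p 7.58e-07. The difference between the effects was not called, and its 95% interval ran from -0.41 to 0.26 on the log2 scale.

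GPAM (chr10:112149864-112215377, minus strand), the mitochondrial glycerol-3-phosphate acyltransferase that starts the pathway, stood at 12.8, 15.8 and 12.3 CPM in RBE control and at 10.5, 10.7 and 9.05 CPM in RBE anlotinib libraries. The treated values all lay below the controls, with a log2 fold change of -0.42 ± 0.15 and adjusted p 0.0738, which was not called. With DESeq2 the adjusted p of GPAM in RBE was 0.0474, with the GC correction it was 0.00741, and without HCCC9810 anlotinib library 10 it was 0.0463. In HCCC9810 GPAM lay between 4.95 and 7.40 CPM in all libraries, with a log2 fold change of 0.11 ± 0.17 (adjusted p 0.652). The difference of the GPAM effects was -0.54 ± 0.23 (adjusted p 0.120), and it was called without library 10 (-0.71, adjusted p 0.0426) and with the GC correction (-0.82, adjusted p 0.00445).

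DGAT1 and DGAT2 encode the unrelated enzymes that complete triglyceride. DGAT1 averaged 17.9 ± 3.15 and 20.2 ± 2.79 CPM (SD, n = 3) in control and treated HCCC9810 cells, and 23.6 ± 1.24 and 22.2 ± 3.24 CPM in RBE. DGAT2 averaged 28.8 ± 2.46 and 25.9 ± 4.35 CPM in HCCC9810, and 6.66 ± 1.48 and 6.82 ± 1.80 CPM in RBE. The treated and control ranges overlapped for both genes in both lines. The 95% intervals of the log2 fold change in HCCC9810 ran from -0.15 to 0.50 for DGAT1 and from -0.56 to 0.24 for DGAT2. In RBE they ran from -0.41 to 0.23 for DGAT1 and from -0.42 to 0.43 for DGAT2. The difference of the DGAT1 effects was called only without libraries 6 and 7 together (-0.56, adjusted p 0.0308). Of the exon bases of DGAT1, 11.1% are shared with other genes, among them HSF1 on the opposite strand at 65.1 to 103 CPM by group mean. The strand setting of the counting is not given, so reads of these overlapping stretches cannot be assigned to 1 gene.

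The perilipins coat the droplet surface. PLIN2 (chr9:19108375-19149290, minus strand) is the coat protein found on droplets of most cells and is degraded when not bound to lipid. In HCCC9810 it stood at 54.9, 52.8 and 51.2 CPM in control libraries and at 120, 134 and 154 CPM with anlotinib. In RBE it stood at 22.1, 25.6 and 25.1 CPM in control libraries and at 41.2, 39.7 and 58.8 CPM with anlotinib. Treated libraries were higher in both lines, and RBE anlotinib library 6 stood above the other two of its group. PLIN2 rose by 1.36 ± 0.15 (log2 fold change ± SE) in HCCC9810 with adjusted p 2.05e-05, and by 0.94 ± 0.15 in RBE with adjusted p 0.000446. The effect in RBE minus that in HCCC9810 was -0.42 ± 0.20, with adjusted p 0.161. Without RBE anlotinib library 6 that difference was -0.64 with adjusted p 0.0144, so whether the 2 effects differed by the test depended on that library.

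PLIN3 (chr19:4838341-4867768, minus strand), a perilipin that moves from the cytosol to new droplets, was, beside ACSL1, the other member with a called difference between the lines. In HCCC9810 it stood at 109, 109 and 118 CPM in control libraries and at 155, 154 and 170 CPM with anlotinib. In RBE it stood at 154, 125 and 164 CPM in control libraries and at 112, 111 and 140 CPM with anlotinib. The treated libraries were all higher in HCCC9810, while in RBE libraries 4 and 5 were below all controls and library 6 lay within the control range. PLIN3 rose by 0.51 ± 0.12 (log2 fold change ± SE) in HCCC9810 with adjusted p 0.00791. In RBE its log2 fold change was -0.29 ± 0.12 with adjusted p 0.112. The difference between the effects was -0.80 ± 0.17 with adjusted p 0.00663 and was called under all 21 alternatives. The RBE estimate was called lower without RBE anlotinib library 6 (-0.41, adjusted p 0.0307), without RBE control library 2 (-0.40, adjusted p 0.0442), without libraries 6 and 7 together (-0.42, adjusted p 0.0128) and with the GC correction (-0.27, adjusted p 0.0295). Of the exon bases of PLIN3, 17.8% are shared with an opposite-strand gene, AC027319.1, which had 0 CPM in every group.

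**Figure D2:**
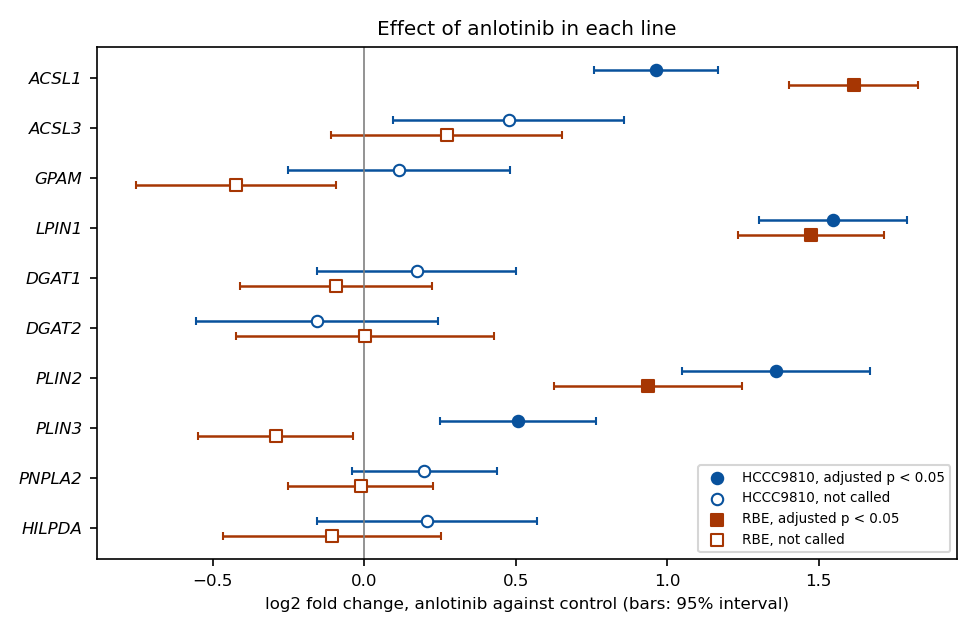
Log2 fold change of each gene with anlotinib against control (x axis) in HCCC9810 (blue circles) and RBE (brown squares), with bars for the 95% interval; filled symbols were called at adjusted p below 0.05. LPIN1 lies at 1.55 and 1.48, ACSL1 at 0.96 and 1.62, PLIN2 at 1.36 and 0.94, and the PLIN3 estimates lie on opposite sides of 0 at 0.51 and -0.29.

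Lipolysis was represented by PNPLA2, which encodes adipose triglyceride lipase, and by HILPDA, a small droplet protein that inhibits it. PNPLA2 (chr11:818902-825573, plus strand) averaged 197 ± 13.4 and 227 ± 24.2 CPM (SD, n = 3) in control and treated HCCC9810 cells, and 93.7 ± 9.97 and 93.0 ± 5.68 CPM in RBE. Its ranges overlapped in both lines, with log2 fold changes of 0.20 ± 0.11 (adjusted p 0.208) and -0.01 ± 0.11 (adjusted p 0.966). HILPDA (chr7:128455849-128458418, plus strand), which is induced by hypoxia in many cell types, averaged 8.94 ± 1.37 and 10.3 ± 1.56 CPM in HCCC9810, and 6.48 ± 0.566 and 5.98 ± 0.909 CPM in RBE. Its log2 fold changes were 0.21 ± 0.17 (adjusted p 0.388) and -0.11 ± 0.17 (adjusted p 0.728). Neither gene was called in either line under any of the 22 alternatives.

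The 2 lines differed in the untreated state in all 10 genes, beside 64.1% of all tested genes, 31.5% higher in RBE and 32.6% lower. The control ranges also lay apart for all 10, beside 69.1% of all genes, 34.2% higher and 34.9% lower. RBE was lower in 6 genes and higher in 4. The lowest against HCCC9810 were ACSL1, at -2.21 ± 0.10 on the log2 scale (adjusted p 5.48e-11), and DGAT2, at -2.10 ± 0.20 (adjusted p 2.05e-07). The log2 difference was -1.13 ± 0.15 for PLIN2 (adjusted p 7.21e-06), -1.07 ± 0.11 for PNPLA2 (adjusted p 7.16e-07), -0.72 ± 0.18 for ACSL3 (adjusted p 0.00258) and -0.45 ± 0.17 for HILPDA (adjusted p 0.0287). GPAM was higher in RBE by 1.19 ± 0.16 (adjusted p 1.28e-05), LPIN1 by 0.54 ± 0.11 (adjusted p 0.000617), PLIN3 by 0.40 ± 0.12 (adjusted p 0.00886) and DGAT1 by 0.40 ± 0.15 (adjusted p 0.0309). The HILPDA call held in 8 of 22 alternatives. It ended without each of RBE control libraries 1, 2 and 3, RBE anlotinib libraries 4, 5 and 6, HCCC9810 control libraries 7 and 8, and HCCC9810 anlotinib library 10, with a lowest size of -0.28 without library 7. The HILPDA call also ended under some of the alternatives other than leaving out a single library. The DGAT1 call ended without RBE control library 3 (0.40, adjusted p 0.0633), HCCC9810 control library 8 (0.38, adjusted p 0.0814) or HCCC9810 control library 9 (0.36, adjusted p 0.0879). If the header numbers were right instead of the words, the libraries compared here would be treated ones. PLIN3 averaged 148 CPM in RBE and 112 CPM in HCCC9810 libraries labelled control. In those labelled anlotinib the order was reversed, at 121 and 159 CPM.

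Per kilobase of gene, in the deposited RPKM, the most abundant of the 10 were the lipase PNPLA2 and the coat gene PLIN3 in all 4 groups. In HCCC9810 control libraries PNPLA2 averaged 49.6 RPKM, PLIN3 38.5, ACSL3 25.6, ACSL1 14.2 and PLIN2 10.1, with ranges that did not overlap between neighbours. DGAT1, HILPDA, LPIN1 and DGAT2 followed at 4.18, 4.16, 3.65 and 3.52 RPKM, each overlapping its neighbour in this order, and GPAM was lowest at 0.588. The control RBE order had PLIN3 first at 54.5 RPKM, then PNPLA2 at 25.3 and ACSL3 at 16.6, all apart. DGAT1 at 5.92 RPKM and LPIN1 at 5.70 overlapped, PLIN2 at 4.94 lay apart below them, ACSL1 at 3.29 overlapped HILPDA at 3.24, and GPAM at 1.44 and DGAT2 at 0.871 were lowest and apart from each other. With anlotinib LPIN1 stood at 10.2 RPKM in HCCC9810, below PLIN2 at 24.6 and above HILPDA at 4.58, and at 16.5 RPKM in RBE, where it overlapped ACSL3 at 20.9. ACSL1 in treated RBE cells reached 10.5 RPKM and overlapped PLIN2 at 9.78.

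**Figure D3:**
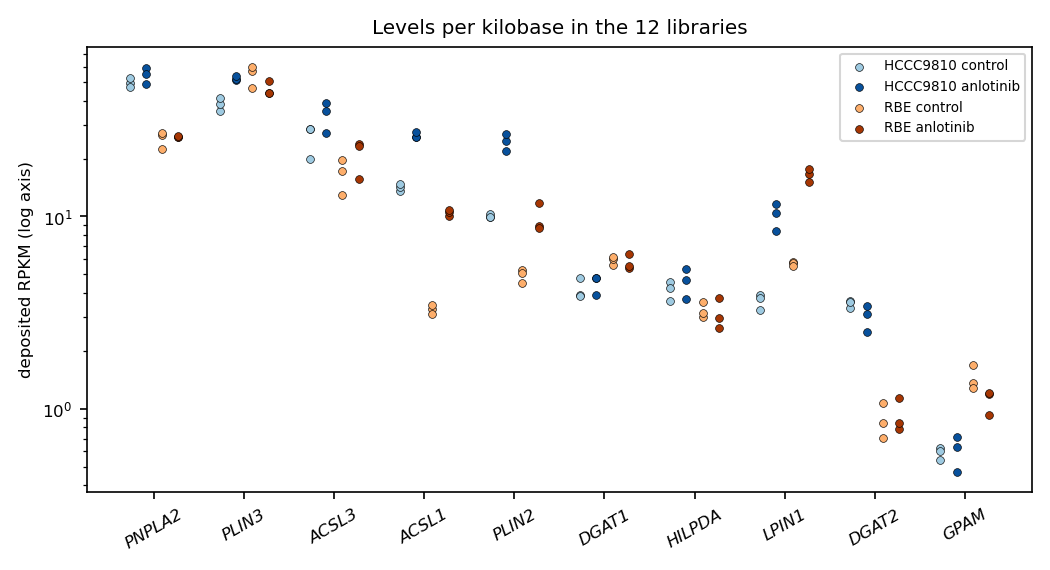
Deposited RPKM (log axis) of the 10 genes, ordered by their mean in HCCC9810 control libraries; each point is 1 of the 12 libraries, coloured by group. PNPLA2 and PLIN3 lie at the top in every group, and LPIN1 moves from 3.65 to 10.2 RPKM in HCCC9810 and from 5.70 to 16.5 in RBE.

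The other genes of the pathway were taken from lists by role, 59 genes of which 42 had enough counts to be tested. In HCCC9810, 10 of the 42 rose and 2 fell, and in RBE 7 rose and 4 fell, with a median log2 fold change of 0.09 and 0.11 against -0.05 and 0.02 over all genes. Over all tested genes the shares called were 11.1% higher and 12.8% lower in HCCC9810, and 9.37% higher and 8.32% lower in RBE. The breakdown list held 5 risen genes of 10 tested in HCCC9810, beside 11.1% of all genes, and 3 risen and 1 fallen in RBE, beside 9.37% and 8.32%. The 5 include G0S2, which inhibits a lipase. Among its genes, PNPLA3, a lipase and acyltransferase whose product sits on droplets beside that of PNPLA2, rose in HCCC9810 by 1.04 ± 0.25 (adjusted p 0.00760) and in RBE by 1.48 ± 0.18 (adjusted p 7.13e-05). The HCCC9810 rise missed the threshold without control library 9 (0.81, adjusted p 0.0520). LIPA, the lysosomal acid lipase, rose in RBE by 1.31 ± 0.09 (adjusted p 3.41e-07) and in HCCC9810 by 0.67 ± 0.09 (adjusted p 0.000151), and the rise in RBE was larger by 0.63 ± 0.13 (adjusted p 0.00502).

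G0S2, like HILPDA an inhibitor of the PNPLA2 lipase, stood between 3.66 and 4.70 CPM in HCCC9810 control libraries and between 7.04 and 17.1 CPM with anlotinib. It rose by 1.51 ± 0.26 (adjusted p 0.000881), while HILPDA was not called. In RBE G0S2 lay between 1.55 and 2.64 CPM in all libraries, with a log2 fold change of -0.48 ± 0.29 (adjusted p 0.289), and the difference of the effects was -1.99 ± 0.38 (adjusted p 0.00375). ABHD6, a monoacylglycerol lipase, rose in HCCC9810 by 0.66 ± 0.12 (adjusted p 0.00190) and fell in RBE (-0.41 ± 0.12, adjusted p 0.0277), a difference of -1.07 ± 0.17 (adjusted p 0.00116). The RBE fall of ABHD6 was not called in 8 of 22 alternatives, among them those without RBE libraries 1, 3, 4 or 5 or HCCC9810 control libraries 8 or 9, where its adjusted p ran from 0.0533 to 0.179.

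Beside ACSL1 and ACSL3, the uptake and activation list had 2 risen genes of 8 tested in each line and none that fell, beside 11.1% of all genes called higher in HCCC9810 and 9.37% in RBE. In HCCC9810 these were the fatty acid transport proteins SLC27A4, at 0.77 ± 0.16 (adjusted p 0.00279), and SLC27A5, at 0.75 ± 0.22 (adjusted p 0.0216). In RBE they were ACSL4, the arachidonate-preferring synthetase, at 1.01 ± 0.29 (adjusted p 0.0289), and SLC27A1, at 0.48 ± 0.11 (adjusted p 0.00717). SLC27A5 was not called without HCCC9810 libraries 8, 9, 11 or 12 (adjusted p 0.0556 to 0.0810), nor ACSL4 without RBE libraries 1, 3, 4 or 5 (adjusted p 0.0765 to 0.0984).

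Beside GPAM, LPIN1 and the DGAT genes, the synthesis list had 0 risen and 2 fallen genes of 10 tested in HCCC9810, and 2 risen and 1 fallen in RBE. These counts lie near the shares of all genes, 12.8% lower in HCCC9810 and 9.37% higher and 8.32% lower in RBE. AGPAT4, a lysophosphatidate acyltransferase, fell in HCCC9810 (-0.48 ± 0.11, adjusted p 0.00717) and rose in RBE by 0.36 ± 0.11 (adjusted p 0.0356), a difference of 0.85 ± 0.16 (adjusted p 0.00311). MOGAT2, a monoacylglycerol acyltransferase with no count in any RBE library, fell in HCCC9810 (-1.28 ± 0.30, adjusted p 0.0116) from 1.88, 2.60 and 3.26 CPM to 1.06, 0.955 and 1.21 CPM, and missed the threshold without control library 9 (-1.07, adjusted p 0.0646). In RBE GPAT3 rose by 0.42 ± 0.12 (adjusted p 0.0224), and AGPAT1 fell (-0.39 ± 0.12, adjusted p 0.0288). Calls in RBE ended without RBE libraries 1, 3, 4 or 5 or HCCC9810 control library 8 for AGPAT4 (adjusted p up to 0.143), without RBE libraries 1, 2 or 5 for GPAT3 (up to 0.136), and without RBE libraries 1 to 5 or HCCC9810 control libraries 8 or 9 for AGPAT1 (up to 0.165).

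Beside PLIN2 and PLIN3, the coat and formation list had 3 risen genes of 11 tested in HCCC9810, beside 11.1% of all genes, and 1 fallen gene in RBE, near the 8.32% of all genes called lower. PLIN4, another perilipin, rose in HCCC9810 by 0.68 ± 0.20 (adjusted p 0.0213), and HSD17B11, a droplet-bound dehydrogenase, by 0.50 ± 0.15 (adjusted p 0.0283). BSCL2, which encodes seipin of the droplet assembly site, fell in RBE (-0.75 ± 0.18, adjusted p 0.00956) from 4.52, 3.99 and 5.07 CPM to 2.47, 2.74 and 2.93 CPM. Of the exon bases of BSCL2, 51.9% are shared with other genes, among them the same-strand readthrough gene HNRNPUL2-BSCL2, so its value is uncertain; the share is 30.2% for AGPAT1 and 16.5% for SLC27A5. PLIN4 was not called without HCCC9810 libraries 9 or 12 (adjusted p 0.0660 and 0.0631), HSD17B11 without HCCC9810 libraries 7, 10 or 12 (0.0528, 0.0623 and 0.0584), and BSCL2 without RBE libraries 3 or 4 (0.0688 and 0.0716).

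**Figure D4:**
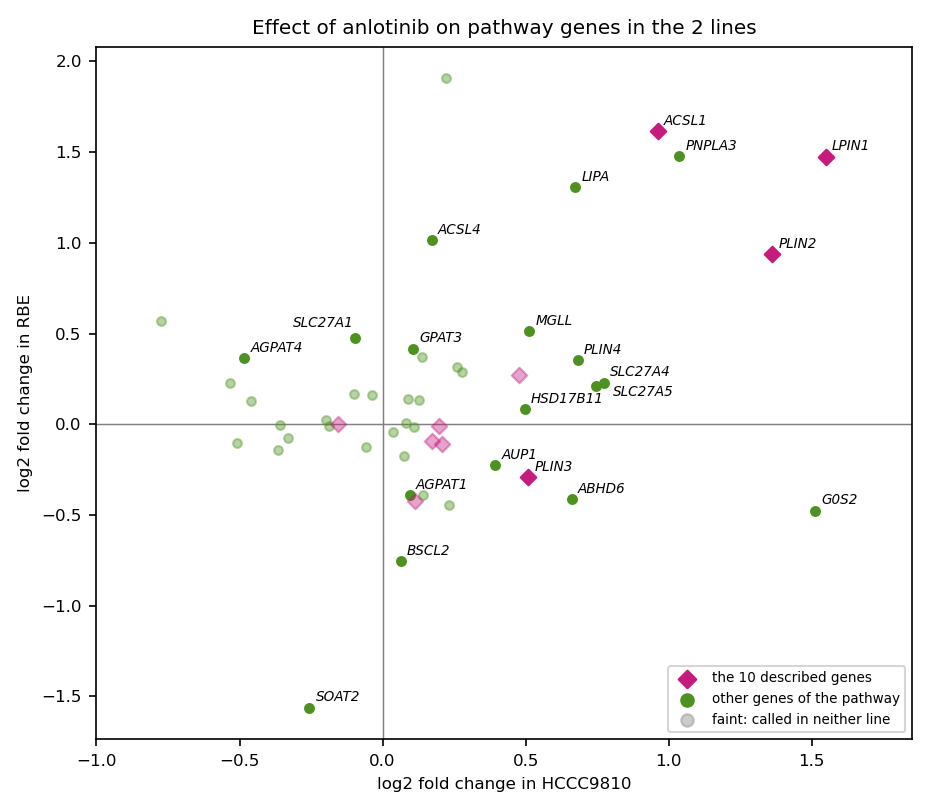
Log2 fold change with anlotinib in HCCC9810 (x axis) against RBE (y axis) for the 10 genes (pink diamonds) and the other tested genes of the pathway (green circles), with genes called in neither line faint; MOGAT2, without counts in RBE, is not drawn. ACSL1, LPIN1, PLIN2, PNPLA3 and LIPA lie at the upper right, and G0S2 lies at 1.51 and -0.48.

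The genes whose levels followed those of the 4 called members most closely were ranked by Pearson's r of log2 CPM, centred within each line, over the 12 libraries, among 10239 genes. These points share libraries and the treatment contrast, so r mostly records a common response to treatment and is given as a description. ACSL1 was closest to ACSS2 (r 0.995), an acetyl-CoA synthetase, and TM7SF2 (r 0.993), a sterol reductase. LPIN1 was closest to the cholesterol synthesis genes HSD17B7 (r 0.992) and ACAT2 (r 0.990). PLIN2 was closest to MICA (r 0.987), a stress-induced ligand of natural killer cells, and to FDFT1 (r 0.985), which encodes squalene synthase. PLIN3 was closest to IRAK1 (r 0.965), a signalling kinase, and BAG3 (r 0.964), a co-chaperone.

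The rise of ACSL1, LPIN1 and PLIN2 in both lines and of PLIN3 in HCCC9810 was called under all 22 alternatives. Over these the log2 fold change of LPIN1 ran from 1.26 to 1.70 in HCCC9810 and from 1.38 to 1.53 in RBE, that of ACSL1 from 0.85 to 1.01 and from 1.42 to 1.68, and that of PLIN2 from 1.21 to 1.47 and from 0.73 to 1.05. PLIN3 in HCCC9810 ran from 0.32 to 0.55, and from 0.47 to 0.55 when 1 library at a time was left out. Its GC content is 58.4%, above the median of 48.6% over all tested genes.

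**Figure D5:**
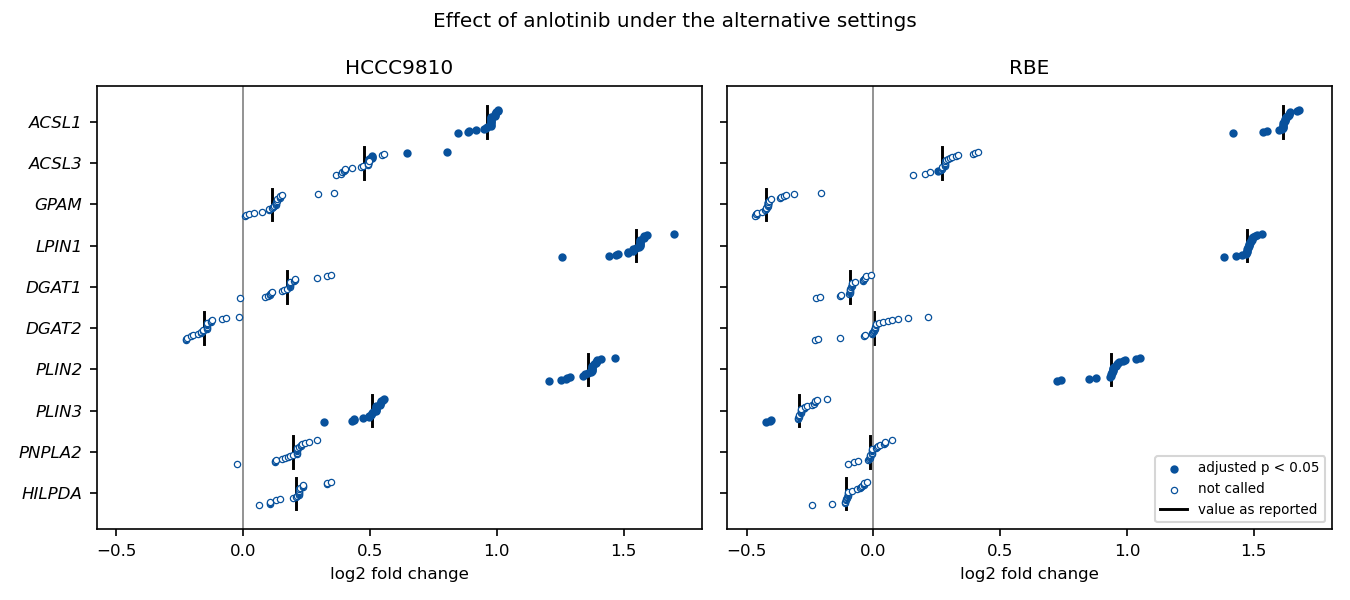
Log2 fold change with anlotinib (x axis) of each gene in HCCC9810 and RBE under the 22 alternatives; filled points had adjusted p below 0.05, open points did not, and vertical bars mark the reported value. Every point of ACSL1, LPIN1 and PLIN2 is filled in both panels, while the points of DGAT2 and PNPLA2 in RBE fall on both sides of 0.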

How the data were processed

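The authors sequenced RNA from 12 cultures with paired-end Illumina reads. Per the submitters' processing notes, reads were aligned with HISAT2 to GRCh38; no counting program, strand setting or annotation is named in the sources used here. The authors deposited whole-number counts and RPKM for 58216 gene IDs, all of them present in GENCODE 29, which supplied gene positions, GC content and shared exon bases. The deposited RPKM equalled counts per gene length and library total within 0.1% for 37194 of 37194 genes compared.

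Header words, not header numbers, gave each column its group. Counts were tested with edgeR 4.0.16 (R 4.3.3; TMM normalisation, filterByExpr, 18035 genes kept, quasi-likelihood F-tests over 4 group means, Benjamini-Hochberg over all kept genes, calls at adjusted p below 0.05). Fold changes are log2, as edgeR reports them with its small prior count. The SE is the absolute log2 fold change without that prior count, over the root of F. CPM values use the normalised library sizes. Alternatives used DESeq size factors, library totals, no filter beyond 1 count in all libraries together, a filter of 1 CPM in 6 libraries, DESeq2 1.42.0, limma 3.58.1 on log2(RPKM + 1) and log2(RPKM + 0.1), a per-library correction for GC content and length, the 6 libraries of a comparison alone, and libraries left out. All members and, from each pathway list, the 2 largest called rises and falls per line with at least 1 CPM were named; for likeness, the 2 closest genes with a mean of at least 5 CPM in both lines. The members and lists were chosen with earlier results of these data known. Precision rests on the 3 libraries of each group and, in the edgeR fit, on an estimate of spread shared by the 4 groups.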

Additional observations from a re-analysis of the deposited data

Results flagged for a closer look

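The response to anlotinib differed between the lines, by the edgeR contrast of the 2 effects, in 2 of the 10 genes and in 7 of the 42 other pathway genes tested (3 higher in RBE, 4 lower), beside 16.6% of all tested genes. Each value is the log2 fold change in RBE minus that in HCCC9810, with its SE. It was 0.65 ± 0.14 for ACSL1 (adjusted p 0.00599), which rose in both lines and more in RBE, and -0.80 ± 0.17 for PLIN3 (adjusted p 0.00663), which rose in HCCC9810 and was not called in RBE. Among inhibitors and lipases it was -1.99 ± 0.38 for G0S2 (adjusted p 0.00375), -1.07 ± 0.17 for ABHD6 (adjusted p 0.00116) and 0.63 ± 0.13 for LIPA (adjusted p 0.00502). Among synthesis and transport genes it was 0.85 ± 0.16 for AGPAT4 (adjusted p 0.00311) and 0.57 ± 0.16 for SLC27A1 (adjusted p 0.0255). For BSCL2, with 51.9% of its exon bases shared with other genes, it was -0.82 ± 0.27 (adjusted p 0.0487). For AUP1, a droplet protein outside the naming rule and named here because its difference was called, it was -0.62 ± 0.17 (adjusted p 0.0264). Over all tested genes the difference ran with GC content (Spearman correlation -0.258 over genes, which do not count as replicates). GC content was 52.4% to 59.6% in the genes named here with a negative difference. It was 42.8% for LIPA, 45.1% for ACSL1 and 47.8% for AGPAT4, but 59.8% for SLC27A1. ACSL1, PLIN3, G0S2, ABHD6, LIPA and AGPAT4 were called under all 21 alternatives, the GC correction among them, SLC27A1 under 14, AUP1 under 13 and BSCL2 under 7. AUP1 was not called without RBE libraries 1, 3, 4 or 5 or HCCC9810 libraries 8, 9, 10 or 12 (adjusted p 0.0699 to 0.0952).
SLC27A1 was not called without RBE libraries 1, 2, 4 or 5 or HCCC9810 libraries 9 or 10 (adjusted p 0.0608 to 0.0950), and BSCL2 without RBE libraries 1, 3, 4 or 5 or HCCC9810 libraries 8, 9, 11 or 12 (adjusted p 0.0950 to 0.140).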

How the results depend on the processing

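No paired analysis was possible because treated and control libraries share no replicate numbers. Among all genes in RBE, the GC and length correction called 4834 (2394 higher, 2440 lower) in place of 3189, and 6 of the 10 members (ACSL1, ACSL3, LPIN1 and PLIN2 higher, GPAM and PLIN3 lower). For the difference between lines it called 4379 genes (2366 higher, 2013 lower) and 4 members (ACSL1, ACSL3, GPAM and PLIN3), and leaving out libraries 6 and 7 also called 4 (ACSL1, DGAT1, PLIN2 and PLIN3) and 6413 genes (3172 higher, 3241 lower) in place of 2990. With library totals the median of all genes moved from 0.09 to 0.22 in that difference and 2080 were called higher and 1085 lower, against 1608 and 1382; log2(RPKM + 1) gave 2248 and 1285 and log2(RPKM + 0.1) gave 2012 and 1156. Leaving out 1 library at a time called 2407 to 5043 genes and 4 to 5 members in HCCC9810, 1868 to 3750 and 3 to 4 in RBE, 1473 to 4865 and 2 to 3 for the difference, and 10747 to 12278 and 8 to 10 between controls. The all-gene count moved over 1.5 times without HCCC9810 control libraries 8 (2459) or 9 (2407) in HCCC9810, and without RBE libraries 1 (1868), 3 (2114), 4 (1941) or 5 (1884) in RBE. For the difference it did so without libraries 1 (1784), 3 (1641), 4 (1565), 5 (1473), 8 (1727) or 9 (1681), and without library 6 (4865). The calls of named pathway genes held in 21 of 22 alternatives for AGPAT4 and PNPLA3, 20 of 21 for MOGAT2, 19 for PLIN4, 17 for SLC27A5 and 15 for HSD17B11 in HCCC9810. In RBE they held in 20 for BSCL2 and SOAT2 (the latter of 21), 18 for ACSL4 and GPAT3, and 14 for ABHD6, AGPAT1 and AGPAT4.

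Estimates near 0 changed sign; none was called. With the GC correction the HCCC9810 effect was -0.013 for DGAT1, -0.024 for PNPLA2 and -0.086 for BSCL2, and that of BSCL2 was -0.0053 with library totals, -0.010 with log2(RPKM + 1) and -0.028 with log2(RPKM + 0.1). In RBE DGAT2 was -0.0010 with DESeq size factors, -0.0036 without the filter, -0.034 with the GC correction and -0.23 without libraries 6 and 7. PNPLA2 there was 0.043 with library totals, 0.0092 with the stricter filter, 0.046 with log2(RPKM + 1) and 0.047 with log2(RPKM + 0.1). The difference of effects was 0.026 for ACSL3 and -0.15 for DGAT2 without libraries 6 and 7, 0.0018 for PNPLA2 with the GC correction, and for LPIN1 0.057 with library totals, 0.13 with log2(RPKM + 1) and 0.069 with log2(RPKM + 0.1). Leave-one-out values ran from -0.054 to 0.25 for BSCL2 in HCCC9810, -0.22 to 0.22 for DGAT2 and -0.10 to 0.075 for PNPLA2 in RBE, and for the difference -0.074 to 0.36 for DGAT2 and -0.22 to 0.0012 for LPIN1. The cause of these shifts was not tested. With 3 libraries a group, members with SE of 0.15 to 0.20 (DGAT1, DGAT2, GPAM, ACSL3, HILPDA) could miss moderate changes.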

Other observations

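None of the 4 lipoprotein export genes (MTTP, APOB, APOC3 and TM6SF2) had enough counts to be tested in these lines. Of the 3 sterol ester genes none was called in HCCC9810. In RBE SOAT2, the sterol acyltransferase of liver and intestine, fell (log2 fold change -1.56 ± 0.37, SE, adjusted p 0.00804 in edgeR's test) from 1.22, 1.19 and 0.856 CPM to 0.586, 0.284 and 0.163 CPM, and it was not called without RBE anlotinib library 5 (-1.36, adjusted p 0.0599). The more abundant SOAT1 was not called in RBE (-0.01 ± 0.12, adjusted p 0.971) or in HCCC9810 (-0.19 ± 0.12, adjusted p 0.281).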
